A study of Mus musculus with 4 samples.

Results

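The genes described here encode the machinery that carries proteins between the endoplasmic reticulum (ER) and the Golgi apparatus: the COPII and COPI vesicle coats, cargo receptors, p24 proteins, KDEL receptors and SNAREs. They were chosen by name, 39 genes out of 18193 with a probe set of their own on the array. The choice was made with earlier results of these data known. Each gene was read from probe sets annotated to its symbol alone. Their transcripts were measured in mice lacking MG56, another name of Hhatl, a protein of the ER and sarcoplasmic reticulum membrane in striated muscle. The groups were tibialis anterior muscle (TA) and heart of MG56-knockout mice and the same tissues of wild-type mice, all C57BL/6J in background and at postnatal day 9, with no treatment named in the labels. How the gene was deleted, and in which cells, is not stated in the labels or the series' design text. Per that text the RNA of 3 knockout mice was pooled for an array, and that of wild-type mice likewise, without their number. With 1 pooled array per group there is no replicate error and no p-value, and every ratio compares pools.

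Proteins leave the ER in vesicles that the COPII coat shapes at ER exit sites. The GTPase Sar1, loaded by Preb, recruits the inner coat of Sec23 and Sec24, whose Sec24 subunit selects cargo, and the Sec13 and Sec31 cage closes around it. Cargo receptors and p24 proteins gather freight into the bud, and a SNARE complex of Stx5a, Gosr2, Bet1 and Sec22b drives fusion at the next membrane. COPI carries receptors and escaped ER proteins back, and KDEL receptors hold the escaped chaperones during that return. In striated muscle the ER is continuous with the sarcoplasmic reticulum, whose membrane proteins are made at the ER, and many of these coat genes are known to be induced when unfolded proteins load the ER.

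The upstream sequences of the members were searched for short motifs known from ER stress responses. RefSeq windows of 300 bases (250 before and 50 after the start site, build GRCm38.p6) were held for 34 of the 39 members, and both strands were read. The motif TGACGTGG, which resembles sites bound by the stress factors XBP1 and ATF6, occurred in 6 of these 34 members (17.6%). It occurred in 0.714% of the 27025 genes with a window and in 1.08% of the 9342 that were also measured in TA. The 7 occurrences are shown, each of them close to the start site. Only the 300 bases around the start were searched, and positions in other genes with the motif were not compared. Each line is 30 bases 5′ to 3′ on the gene's own strand, with the motif or its reverse complement in capitals.
Sec24d: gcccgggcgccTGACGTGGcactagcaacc
Sec23a: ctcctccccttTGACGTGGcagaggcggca
Copb1: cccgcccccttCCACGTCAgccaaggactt
Copb2: tcccggaagttCCACGTCAgtgggttggcc
Kdelr3: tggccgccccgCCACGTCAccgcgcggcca
Stx5a: tggcgcagcagCCACGTCAccgagttagga
Stx5a: agttaggagtacgtctaggTGACGTGGcgg

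These stretches lie at chr3:123267459-123267488 on the plus strand for Sec24d, chr12:59011993-59012022 on the minus strand for Sec23a and chr7:114254690-114254719 on the minus strand for Copb1. Those of Copb2 and Kdelr3 are chr9:98563713-98563742 and chr15:79516367-79516396, both plus, and those of Stx5a are chr19:8741422-8741451 and chr19:8741444-8741473, both plus. With the start site as base 1, the motif began at base -26 in Sec24d, -28 in Copb1, -30 in Kdelr3 and -7 in Copb2. In Sec23a it began at base 7, and in Stx5a at bases 10 and 40. A match describes the letters of the window and not a site of binding.

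The full ER stress element ERSE, a CCAAT box and a CCACG box spaced apart, occurred in 0 of the 34 members and in 0.137% of all genes with a window, and the element ERSE-II in 0 members and 0.0444% of genes. The half-motifs CCACG and ACGTG, each of which overlaps TGACGTGG, occurred in 76.5% and 67.6% of the members, against 52.2% and 29.6% of the genes measured in TA. The cyclic AMP response element TGACGTCA occurred in 2 members (5.88%), Cope and Gosr2, in 2.03% of all genes and in 3.51% of those measured in TA. The 250 bases before the start of the 2 members that differed most in TA, Sec23b and Sec24b, are shown beside those of Sec24d, with every CCACG or ACGTG on either strand in capitals.
Sec24d: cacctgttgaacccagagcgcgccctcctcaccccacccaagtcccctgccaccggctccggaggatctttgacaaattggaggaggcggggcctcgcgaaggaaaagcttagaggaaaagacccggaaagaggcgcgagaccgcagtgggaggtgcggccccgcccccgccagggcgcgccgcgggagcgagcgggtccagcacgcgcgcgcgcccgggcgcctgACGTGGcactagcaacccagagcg
Sec23b: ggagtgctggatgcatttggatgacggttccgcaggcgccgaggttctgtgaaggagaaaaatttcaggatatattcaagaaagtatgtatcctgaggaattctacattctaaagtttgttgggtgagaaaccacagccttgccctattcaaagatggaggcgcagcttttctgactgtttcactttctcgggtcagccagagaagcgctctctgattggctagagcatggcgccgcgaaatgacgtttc
Sec24b: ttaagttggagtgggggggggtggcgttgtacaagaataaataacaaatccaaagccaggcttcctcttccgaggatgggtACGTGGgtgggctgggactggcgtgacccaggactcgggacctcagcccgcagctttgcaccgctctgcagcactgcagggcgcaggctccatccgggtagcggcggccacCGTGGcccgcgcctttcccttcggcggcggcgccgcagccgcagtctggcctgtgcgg

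The 3 runs are chr3:123267246-123267495 (plus strand), chr2:144555979-144556228 (plus strand, the more upstream of the windows of Sec23b) and chr3:130060908-130061157 (minus strand). Sec24b held both half-motifs and Sec23b neither. The TA ratios given below did not separate members with TGACGTGG from those without. The median log2 ratio of knockout over wild type in TA was 0.38 in the 6 members with it and 0.36 in the 28 measured members without it. Of the members at least 1.5-fold higher in knockout TA, 7 had a window and 0 of these held TGACGTGG. The share was 17.6% over all 34 members with a window and 1.08% over the genes measured in TA. With 7 genes a count of 0 cannot be told from those shares, and a link between motif and ratio was not tested.

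Values are MAS5 signals, which are linear intensities in arbitrary units on 1 scale for the 4 arrays. The median of all signals, 101.3, was used as a floor, and a gene was taken as measured in a comparison if either array reached it. The targeted gene Hhatl had a signal of 1078 in knockout and 5491 in wild-type TA, and of 880 in knockout and 2110 in wild-type heart. All 13 skeletal muscle markers were at least 1.5-fold higher in wild-type TA than in wild-type heart, and all 13 heart muscle markers were at least 1.5-fold lower. All 7 cell division markers on the array were lower by 1.5-fold or more in each knockout pool, with a summed signal of 3228 against 7599 in TA and of 3850 against 10218 in heart. The summed signal of 8 fibroblast markers was 142167 in knockout and 156697 in wild-type TA, and that of 8 leukocyte markers 9181 and 8089. Of the 5 measured leukocyte markers, 1 was at least 1.5-fold higher in knockout TA, the neutrophil gene S100a8, and Cd3e, Cd79a and Itgam lay below the floor on all 4 arrays. The part of these cell types in the results below was not tested. In bulk RNA, fewer cells of a type and less RNA per cell cannot be told apart.

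Of the 39 members, 38 were measured in both tissues. The exception was Tmed2, a p24 gene whose only probe set lay below the floor on every array, at 18.5 and 27.3 in knockout and wild-type TA and at 7.3 and 23.3 in heart. The other signals lay between 442 and 14287.

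**Figure D1:**
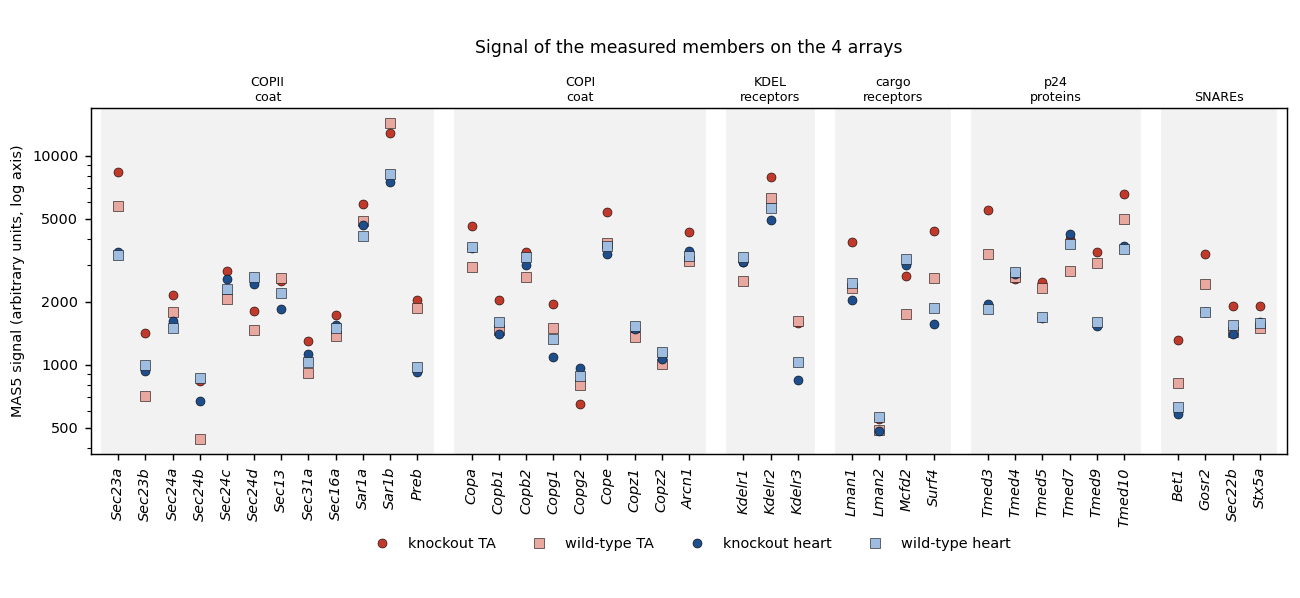
MAS5 signal (vertical log axis, arbitrary units) of the 38 measured members on the 4 arrays, grouped by complex; circles are knockout, squares wild type, red TA and blue heart, 1 array each. The knockout TA circle is the highest of the 4 points for 25 members, while the pair of heart points mostly lie close together; levels of different genes cannot be compared because probe sets differ in brightness.

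In knockout TA most of the members were moderately higher than in wild-type TA, and every complex had a positive median. Of the 38 measured members, 33 had a ratio above 1, and 8 were at least 1.5-fold higher: Sec23b, Sec24b, Copa, Lman1, Mcfd2, Surf4, Tmed3 and Bet1. Those 8 are 21.1% of the members, while 4.2% of all 11528 genes measured in TA were 1.5-fold higher. The members were chosen with earlier results of these data known. Their shares here and below are thus descriptions and no independent test. Among the 6076 genes whose 4 signals all reached 442.4, the lowest signal of a measured member, 3.03% were 1.5-fold higher. At 1.3-fold, 20 members were higher, against 10.7% of all genes, and at 2-fold only Sec23b was, against 0.954%. None of the 38 members was 1.5-fold lower, a threshold passed by 4.44% of all genes and 1.94% of the 6076 genes as bright as the members. With 38 genes a count of 0 cannot be told from those shares. The median log2 ratio of the members was 0.39, or 1.31-fold, against -0.01 over all genes. The share above 1 was 86.8% of the members and 48.7% of all genes.

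No such difference appeared in heart. There 0 of 38 members were 1.5-fold higher and 0 were 1.5-fold lower, where 2.67% and 4.19% of the 11452 genes measured in heart were. Among the 6076 genes as bright as the members these shares were 1.12% and 1.4%. With 38 genes, counts of 0 cannot be told from them. The log2 ratios ran from -0.36 for Sec24b to 0.18 for Sar1a around a median of -0.07, with 13 members above 0 (34.2%, against 49.7% of all genes) and 25 below. The TA ratio exceeded the heart ratio in 36 of 38 members, or 94.7%, and in 5405 of all 10802 genes measured in both tissues. The exceptions were Sar1b and Copg2. In 11 members, or 28.9%, the TA ratio was at least 1.5 times the heart ratio, and in 0 it was 1.5 times smaller, where 6.44% and 5.1% of all genes passed. Of the genes as bright as the members, 3.64% and 2.32% passed. The knockout TA array had the highest of the 4 signals in 25 of the 38 members, or 65.8%, against 22.5% of all genes and 23.3% of those as bright. Across the 38 members the TA and heart log2 ratios correlated at -0.11, and across all genes measured in both tissues at 0.31. Members of a complex are not independent points. The members' log2 ratios had a standard deviation of only 0.14 in heart, against 0.29 in TA. A spread this small limits any correlation, and the 2 values were not tested against each other.

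**Figure D2:**
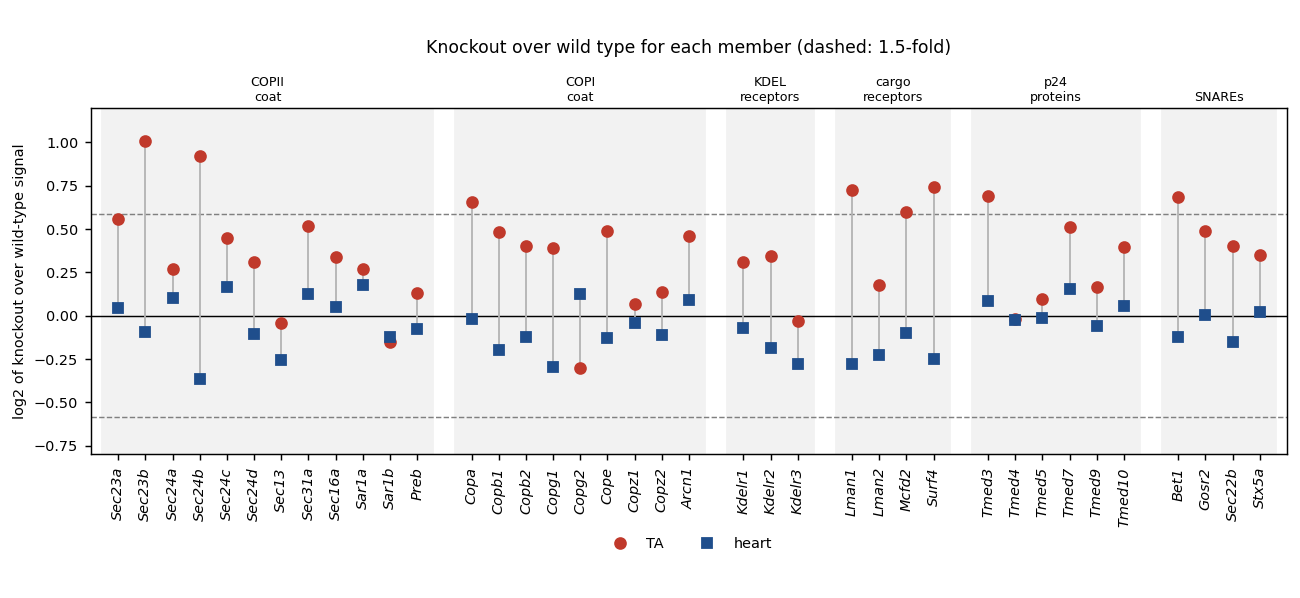
Log2 of knockout over wild-type signal for each measured member in TA (red circles) and heart (blue squares), grouped by complex, 1 array per group; a grey line joins the tissues of a gene and dashed lines mark 1.5-fold either way. In TA 8 members lie above the upper dashed line and 33 above 0, while in heart none lies beyond a dashed line.

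Among the COPII genes, Sec23b and Sec24b of the inner coat differed most in TA. Sec23b encodes a Sec23 protein, which joins the inner coat and stimulates GTP hydrolysis by Sar1. Its signal was 1426 in knockout and 708 in wild-type TA, and 934 and 997 in heart. The knockout TA array was thus the highest of the 4 and the wild-type TA array the lowest, a 2.01-fold difference in TA on its only probe set. Sec24b encodes a cargo-binding subunit and had signals of 838 and 442 in TA and of 671 and 862 in heart. It was 1.89-fold higher in knockout TA and 1.29-fold lower in knockout heart, so that the knockout TA signal lay near that of wild-type heart.

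Their relatives differed less. Sec23a stood at 8407 in knockout and 5722 in wild-type TA and at 3457 and 3356 in heart, which is 1.47-fold higher in TA and just under the threshold. Sec24c had TA signals of 2808 and 2057 and heart signals of 2575 and 2301. Sec24d had 1810 and 1460 in TA and 2439 and 2624 in heart. Among the Sec24 genes the TA folds were thus 1.89 for Sec24b, 1.37 for Sec24c and 1.24 for Sec24d. Sec24a had signals of 2159 and 1795 in TA and 1618 and 1506 in heart, a log2 ratio of 0.27 in TA.

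Outside the inner coat, no COPII gene reached 1.5-fold. The cage gene Sec31a was 1.43-fold higher in knockout TA, at 1301 against 910, whereas its partner Sec13, which also serves in the nuclear pore, was 1.03-fold lower at 2524 against 2594. Sec16a, which organises ER exit sites, was 1.26-fold higher and Preb, the exchange factor for Sar1, 1.10-fold. The Sar1 genes pointed in different directions. Sar1a was 1.21-fold higher, with signals of 5855 and 4855 in TA and 4666 and 4128 in heart, and Sar1b was 1.11-fold lower, with 12840 and 14287 in TA and 7520 and 8170 in heart. Over the 12 COPII genes the TA median was 0.32 on the log2 scale, with 10 above 0, and the heart median -0.02, with 6 above 0.

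Cargo receptor genes had the largest median of the complexes in TA, 0.66 on the log2 scale, with 3 of 4 past 1.5-fold, or 2 of 4 after quantile normalization over the 4 arrays, where Mcfd2 had a log2 ratio of 0.576. Lman1 encodes ERGIC-53, a lectin that works with the small calcium-binding protein encoded by Mcfd2 to export coagulation factors. Lman1 had signals of 3869 and 2339 in knockout and wild-type TA and of 2030 and 2462 in heart, which is 1.65-fold higher in TA and 1.21-fold lower in heart. Mcfd2 had 2666 and 1757 in TA and 2990 and 3204 in heart. Both partners were thus higher in knockout TA, Mcfd2 by 1.52-fold, but only for Lman1 was the knockout TA array the highest of the 4.

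Surf4, a receptor for soluble cargo, stood at 4370 in knockout and 2612 in wild-type TA and at 1566 and 1862 in heart. Its 1.67-fold difference in TA was shared by all of its 5 probe sets, with folds from 1.62 to 1.87. Lman2, which encodes the related lectin VIP36, was 1.13-fold higher in TA, with 550 and 486, and 1.17-fold lower in heart, with 480 and 560. Its second probe set, slightly dimmer on average over the 4 arrays, gave 1.79-fold in TA, from 720 and 403, so its TA value depends on the probe set. In heart all 4 cargo receptor genes lay below 0, with a median of -0.24.

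The p24 proteins are small membrane proteins that cycle between ER and Golgi and help to load cargo such as lipid-anchored proteins. Tmed3 had TA signals of 5473 in knockout and 3384 in wild type and heart signals of 1958 and 1847, and it was the only one of the 6 measured p24 genes past 1.5-fold in TA, at 1.62-fold. Tmed7 followed at 1.43-fold and Tmed10 at 1.32-fold. Tmed9, Tmed5 and Tmed4 had folds of 1.12, 1.07 and 0.986. In heart the 6 lay between -0.06 and 0.16 on the log2 scale. Other probe sets spread more widely there. The second of Tmed9 had heart signals of 974 in knockout and 1451 in wild type, 1.49-fold lower, and those of Tmed5 were 1.22-fold and 1.18-fold lower and, on a dim one, 1.42-fold higher.

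All 4 SNARE genes were higher in knockout TA, with a median log2 ratio of 0.45. Bet1, whose product pairs with Stx5a in fusion with the Golgi, had signals of 1310 and 814 in TA and of 579 and 631 in heart, a 1.61-fold difference in TA. Gosr2, the membrin gene, was 1.40-fold higher, Sec22b 1.32-fold and the Golgi syntaxin gene Stx5a 1.28-fold. Their heart ratios were 1.09-fold lower for Bet1, 1.11-fold lower for Sec22b and 1.02-fold higher for Stx5a, and Gosr2 had heart signals of 1785 and 1779. The second probe sets of Bet1, Sec22b and Stx5a were 1.11-fold, 1.09-fold and 1.1-fold higher in heart, and that of Gosr2 1.22-fold lower. The heart direction of Bet1, Sec22b and Gosr2 thus depends on the probe set.

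The COPI coat is a complex of 7 kinds of subunit, called coatomer, and 8 of its 9 genes were above 0 in TA. Copa, the alpha subunit, had signals of 4630 in knockout and 2942 in wild-type TA and of 3635 and 3679 in heart, a 1.57-fold difference in TA, or 0.52 on the log2 scale as the median over its probe sets and so under the threshold. Copb1, Copb2, Copg1, Arcn1 and Cope lay between 1.31-fold and 1.41-fold, below the threshold. Arcn1 passed it on its other probe sets, at 1.66-fold and 1.61-fold. Copb1, the beta subunit, was 1.40-fold higher in TA, Copb2, the beta prime subunit, 1.32-fold, Copg1, a gamma subunit, 1.31-fold, Arcn1, the delta subunit, 1.37-fold and Cope, the epsilon subunit, 1.41-fold. The zeta subunit genes Copz1 and Copz2 were 1.05-fold and 1.10-fold higher.

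The alternative gamma subunit gene Copg2 differed from the rest of the coat. Its signal was 651 in knockout and 803 in wild-type TA, the lowest of the 4 arrays in the knockout, and 963 and 883 in heart. Copg1 had 1955 and 1494 in TA and 1083 and 1328 in heart. In TA Copg1 was thus 1.31-fold higher and Copg2 1.23-fold lower, and in heart Copg1 was 1.23-fold lower and Copg2 1.09-fold higher. Copg2 was read by a single probe set. Over the 9 COPI genes the log2 medians were 0.40 (TA) and -0.11 (heart).

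KDEL receptors, which return chaperones to the ER, showed no member past 1.5-fold. Kdelr2 had signals of 7942 and 6252 in TA and of 4936 and 5623 in heart, and Kdelr1 3103 and 2504 in TA and 3118 and 3277 in heart. In TA these are 1.27-fold and 1.24-fold higher. Kdelr3, with 1578 and 1613 in TA and 847 and 1026 in heart, was 1.02-fold lower in TA. All 3 receptor genes lay below 0 in heart, by 1.05-fold for Kdelr1, 1.14-fold for Kdelr2 and 1.21-fold for Kdelr3.

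**Figure D3:**
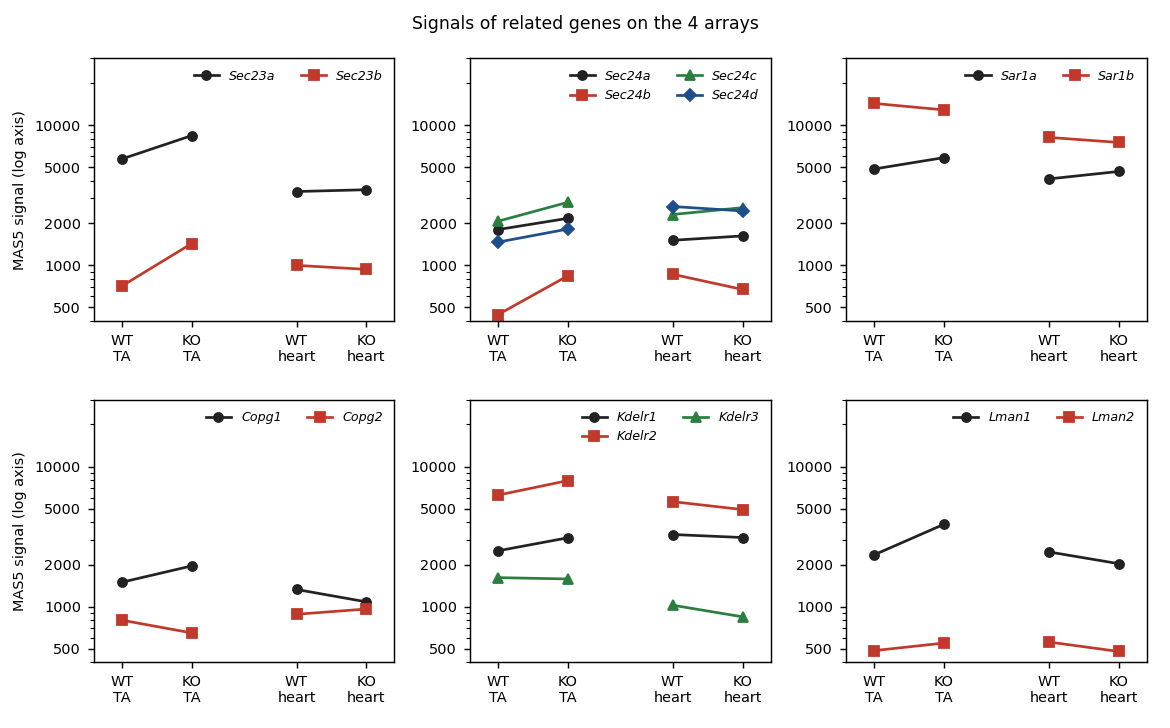
MAS5 signals (vertical log axis) of related genes in 6 panels, in the order wild-type TA, knockout TA, wild-type heart and knockout heart, 1 array each; lines join the arrays of a tissue. Sec23b and Sec24b climb most steeply in TA, Copg1 and Copg2 slope in opposite directions, and the levels of different genes in a panel cannot be compared.

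Probe sets gave a further reading of the same arrays, since several address the same transcript. Of 78 probe sets of the members, 68 reached the floor on both TA arrays; 61 of these were above 0, 19 were 1.5-fold or more higher and 0 were that much lower. Of the 30 that were second probe sets of 19 members, 28 pointed in the same direction as the one used, and 11 were at least 1.5-fold higher. The 2 that did not were dim, with signals of 103 and 123 for Sec24a and of 116 and 144 for Lman1. For Copa the second probe set, also dim, gave 1.31-fold. For Arcn1 the 2 other probe sets gave 1.66-fold and 1.61-fold, and for Sec22b, Tmed7 and Tmed9 another gave 1.58-fold, 1.64-fold and 1.44-fold. Other probe sets gave less than the one used. That of Bet1 gave 1.48-fold, under the threshold, and further ones of Tmed7 gave 1.29-fold and 1.28-fold. Those of Kdelr2 and Copg1 gave 1.07-fold and 1.22-fold.

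As a measure of the error of a ratio, the 2 brightest probe sets of a gene were compared over all 2327 genes for which both had TA signals of at least 4 times the floor. Their log2 ratios in TA differed by a median of 0.13, and by up to 0.36 in 90% of these genes. This error covers the probe sets only, and not the mice, the pools or the hybridisation. In heart, 17 of 28 second probe sets pointed in the direction of the one used, and 1 was at least 1.5-fold higher, the dim second probe set of Copa with signals of 242 and 156.

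**Figure D4:**
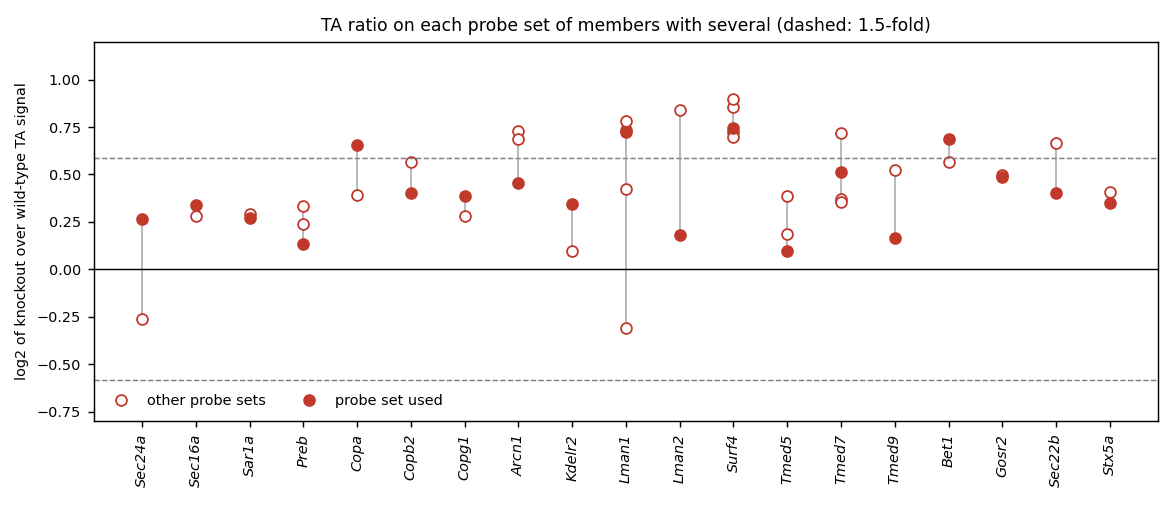
Log2 of knockout over wild-type TA signal on each probe set at or above the floor on both TA arrays, for the 19 members with more than 1; filled circles are the probe set used for the gene, open circles the others, and dashed lines mark 1.5-fold. The points of Surf4 all lie above the upper dashed line, those of Lman2 and Arcn1 straddle it, and only 1 point each of Sec24a and Lman1 lies below 0.

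The neighbours of the members in the secretory pathway were set beside them. Of 59 other measured genes of the early pathway, 3 were 1.5-fold higher in knockout TA and 0 lower, or 5.08% against the 4.2% of all genes, with a median log2 ratio of 0.10. Arfgap3, which activates GTP hydrolysis by Arf1 on COPI membranes, was 2.92-fold higher, at 975 against 334. The Golgi stacking gene Gorasp2 was 1.93-fold higher, at 4597 against 2377, and the tether gene Uso1 1.71-fold, at 6320 against 3705. A further list held 27 measured genes of the translocon, oligosaccharyl transferase, signal peptidase, and the signal recognition particle and its receptor. Of these 27, 8 were 1.5-fold higher and 0 lower (29.6%, median 0.44). They included the signal peptidase genes Spcs2 at 2.45-fold, Sec11c at 2.29-fold and Spcs3 at 2.27-fold. Coats and SNAREs that act after the Golgi, such as clathrin and its adaptors, had 1 of 45 higher, Ap3b1 at 1.67-fold, and 0 lower (2.22%, median 0.02). In heart the 3 lists had medians of -0.05, -0.11 and 0.02. These lists, too, were chosen with earlier results of these data known, and they were not tested against each other.

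**Figure D5:**
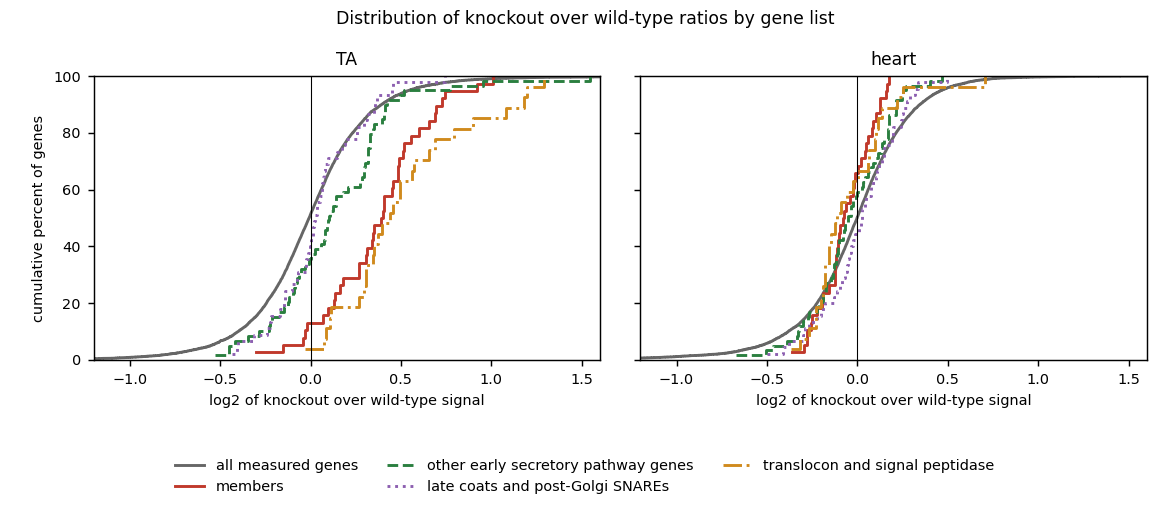
Cumulative percent of genes (vertical axis) by log2 of knockout over wild-type signal (horizontal axis) in TA and heart, for all measured genes, the members and 3 other lists. In TA the curves of the members (median 0.39) and of the translocon list (0.44) lie right of all genes (-0.01), and the late coats (0.02) lie close to them; in heart the medians of the 4 lists lie between -0.11 and 0.02.

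Between the wild-type tissues, the members were not shifted as a group. In wild-type TA against wild-type heart, 6 of 38 were higher by 1.5-fold or more (15.8%) and 3 lower (7.89%), where 14.5% and 18.0% of all 11872 genes measured in that comparison were. Among the 6076 genes as bright as the members these shares were 11.9% and 14.2%. The members' median was -0.07 on the log2 scale, as over all genes. At 2-fold, 0 members were higher and 0 lower, against 7.56% and 7.8% of all genes. Those higher in TA were Sec23a at 1.70-fold, Sar1b at 1.75-fold, Preb at 1.91-fold, Kdelr3 at 1.57-fold, Tmed3 at 1.83-fold and Tmed9 at 1.93-fold. Those lower were Sec24b at 1.95-fold, Mcfd2 at 1.82-fold and Sec24d at 1.80-fold.

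Of the 12 COPII genes, 3 were at least 1.5-fold higher in wild-type TA and 2 lower, beside 14.5% and 18.0% of all genes. These counts were not tested against those shares. Within the Sec23 and the Sec24 genes, relatives pointed in different directions. Of the 2 Sec23 genes, Sec23a was 1.70-fold higher in wild-type TA and Sec23b 1.41-fold lower. Of the 4 Sec24 genes, Sec24a was 1.19-fold higher, and Sec24c, Sec24d and Sec24b were 1.12-fold, 1.80-fold and 1.95-fold lower. The COPI coat had 0 of 9 genes past 1.5-fold, with log2 ratios from -0.32 to 0.17. The SNAREs also had 0 of 4, with log2 ratios from -0.11 to 0.45. This comparison shares the wild-type TA array with the TA knockout comparison, so the values are given side by side and not related to each other.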

How the data were processed

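Per the submitters' processing notes the deposited values, a linear intensity for each probe set and array, come from MAS5. Version, scaling target and detection calls of MAS5 are not stated there. Trimmed means of the 4 arrays (2% off each end) lay between 496.35 and 496.83. The number of arrays limits the precision. Of 45037 probe sets, 34945 had 1 gene symbol in the platform's annotation, 932 several and 9160 none; only the first were used, and all 39 members matched a RefSeq gene by identifier and symbol (GRCm38.p6).

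Signals under the floor of 101.3 were raised to it. A gene with several probe sets was read from the one brightest on average over the 4 arrays. Ratios were taken on the arrays as deposited and counted at 1.5-fold. The text gives the 4 signals of members past 1.5-fold in a knockout comparison and of their relatives; others are given by ratio or range, and up to 4 genes per further list. Members and lists were chosen with earlier results of these data known. The share of calls among genes as bright as the members, and the sequences printed, were added after the data were seen. Changes planted in simulated arrays were used to test the computation. Alternatives were 3 normalizations, 4 treatments of low signals, 3 rules for probe sets and 2 thresholds. Protein sequences were not used here. Python 3.11.15, numpy 2.4.6, pandas 2.3.3, scipy 1.17.1 and matplotlib 3.10.9 were used.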

Additional observations from a re-analysis of the deposited data

Results flagged for a closer look

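Of the members, 3 lay at least 1.2-fold higher in knockout TA and at least 1.2-fold lower in knockout heart. The share of all genes that pass this rule was not computed, so the count cannot be called high or low. With 1 array per group the difference between the tissues was not tested. The log2 ratio in TA minus that in heart was 1.28 for Sec24b, 1.004 for Lman1 and 0.68 for Copg1. The rule left out Sec23b, with a difference of 1.10, and Surf4, with 0.992. Their heart signals were 1.07-fold and 1.19-fold lower in the knockout. For Lman1 the second brightest probe set was 1.72-fold higher in TA and 1.15-fold higher in heart, so the direction in heart differed between its probe sets. For Copg1 a second probe set gave 1.22-fold higher in TA and 1.07-fold lower in heart. Sec24b had no second probe set above the floor.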

How the results depend on the processing

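The counts of members at least 1.5-fold higher and lower, and the median log2 ratios, kept within 1.5 times and 0.1 of their values under the other normalizations, floors and probe set rules, with 2 exceptions. With no floor, Tmed2 was measured and 1 member was 1.5-fold lower in knockout heart. Without probe sets ending in _s_at, _x_at or _a_at, which left 31 measured members, the wild-type TA over heart median was 0.14. At a threshold of 1.3-fold, 20 members were higher in knockout TA (10.7% of all genes), 10 higher and 6 lower in wild-type TA than in heart (22.2% and 28.1%), and 20 higher and 1 lower in the difference between tissues (14.1% and 12.4%). At 2-fold these numbers were 1 (0.954% of all genes), 0 and 0, and 3 for the difference upwards (1.67%). For single members in TA, Copa was no longer past 1.5-fold as the median over probe sets (0.52), and Mcfd2 was not after quantile normalization over the 4 arrays (0.576, where 1.5-fold is 0.585). Arcn1 and Lman2 passed it under other probe set rules (0.69 and 0.84). Sec23b, Sec24b, Lman1, Surf4, Tmed3 and Bet1 passed it under each alternative normalization, floor and probe set rule that measured them. Surf4 and Tmed3 have probe sets of those endings only. Sec23b has 1 probe set, and Sec24b and Tmed3 had no second probe set above the floor. The probe set rules could therefore not change their ratios. A floor lower than the signals of a gene could not change its ratio either. No paired analysis was possible because each group has 1 array.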

Other observations

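Among the other early secretory genes, Ergic1, which encodes a cycling protein of the intermediate compartment, was 1.44-fold lower in knockout TA and 1.21-fold lower in knockout heart. Creb3l1, a transcription factor gene known to act on secretory genes, had dim signals of 206 and 225 in knockout and wild-type TA and of 133 and 211 in heart. Srprb, a subunit of the signal recognition particle receptor, was higher in both knockout pools, 1.57-fold in TA and 1.63-fold in heart.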
